A study of Homo sapiens with 6 samples.

Results

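The genes described here encode the vacuolar proton pump (V-ATPase), the Ragulator and Rag GTPase complex that sits beside it on the lysosome, the folliculin complex, the kinase mTOR with its partner raptor, and the transcription factors TFEB, TFE3 and MITF. They were chosen by name: protein-coding genes whose symbol starts with ATP6V0, ATP6V1, ATP6AP1 or ATP6AP2 (27 genes), plus 17 genes named individually. This gave 44 genes of the 58735 in the deposited table. The symbol rule also takes in ATP6V1FNB, a neighbour of ATP6V1F, and ATP6V1G2-DDX39B, a readthrough transcript, neither of which is a known pump subunit. It leaves out TCIRG1, the a3 subunit, which is described with the related genes. The rule uses gene names and no expression value, but it was chosen with earlier results of these data known.

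The 6 RNA-seq libraries came from separate cultures of the MOLM-13 line, which derives from a human acute myeloid leukaemia of monocytic type with a rearranged KMT2A gene and an activating FLT3 duplication. In 3 cultures the cells were exposed for 48 hours to 3.5 nM 8p, a synthetic compound described as inhibiting RET and CDK kinases (CDK8 in the sample labels), at a dose below its stated IC50 of 7 nM. The other 3 were untreated control cultures kept for the same 48 hours; whether they received the solvent of 8p is not stated. All 6 are labelled wild type and were grown in medium with serum, and each group's replicates are described as biologically independent, but they come from 1 cell line. Each library is a bulk sample, in which fewer cells of a kind and less RNA per cell cannot be told apart.

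The V-ATPase pumps protons into lysosomes and endosomes. Its V1 sector on the cytosolic side splits ATP, and its V0 sector in the membrane carries the protons. Ragulator anchors the Rag GTPases to the lysosomal surface beside the pump, and when amino acids are plentiful the Rags recruit mTORC1 there. Active mTORC1 phosphorylates TFEB and TFE3 and keeps them in the cytosol. When it is inactive they enter the nucleus and bind CLEAR sites, E-boxes with the core CACGTG, near genes of lysosomal proteins, the V-ATPase among them. Folliculin with FNIP1 or FNIP2 acts on RagC and RagD and is needed for that phosphorylation. Monocytes and macrophages are rich in lysosomes. MYC also binds the CACGTG core.

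CLEAR-type E-boxes were found near the starts of members of several complexes. Promoter windows from 250 bases before to 50 bases after a gene's start were taken from RefSeq (GRCh38.p14, the assembly behind the hg38 build of the counts) and were matched by symbol for 33 of the 44 members. On either strand, CACGTG was present in 27.3% of these windows (9 of 33) and in 7.44% of all 27305 windows. The longer TCACGTG, which contains that core, was present in the same 9 members and in 3.82% of all windows. The 10-base palindrome with GT before and AC after the core was present in ATP6V1G1 and RRAGB and in 0.381% of all windows. Of the fixed list of lysosomal genes known as TFEB targets, 11 of the 21 with a window held TCACGTG (52.4%). These genes are listed as CLEAR targets, and CLEAR sites hold the CACGTG core. Their share may thus have been set in part by the choice of list, and is no independent benchmark for the members. A match is a sequence description and does not show that a factor was bound in these cells. The sites of the tested members are printed because the same 6 letters recur in the pump, Ragulator, the Rags and FNIP1; capitals mark the core and lower case its flanks, read 5′ to 3′ on the strand of the gene.
ATP6V0B, chr1:43974891-43974920, plus strand: ccggcgtggggtCACGTGgtaccggcgcat
ATP6V0B, chr1:43974909-43974938, plus strand: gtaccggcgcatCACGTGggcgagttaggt
ATP6V0D1, chr16:67481199-67481228, minus strand: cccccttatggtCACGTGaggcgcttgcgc
ATP6V1G1, chr9:114587699-114587728, plus strand: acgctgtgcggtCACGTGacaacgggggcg
LAMTOR1, chr11:72103445-72103474, minus strand: ctttccccgcatCACGTGcttgcgtgtacg
LAMTOR4, chr7:100148892-100148921, plus strand: agcggctgcaagCACGTGaccggggcctga
RRAGB, chrX:55717712-55717741, plus strand: ggtagcggcagtCACGTGacagactccggg
RRAGC, chr1:38859867-38859896, minus strand: aggtgattccggCACGTGacggggcaccac
FNIP1, chr5:131797094-131797123, minus strand: tccgcgcgccgcCACGTGatgcggcccccc
FNIP1, chr5:131797175-131797204, minus strand: ccccgcccctgcCACGTGacgggacccgcc

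The core in ATP6V0D1, ATP6V1G1 and the upstream site of ATP6V0B began at positions −59, −58 and −57 from the RefSeq start, and that of LAMTOR4 at −14. RRAGB held 3 cores in its window, of which the palindromic one is shown. Over all 13822 genes tested, 37.9% were called higher with 8p and 36.9% lower at an adjusted p under 0.05 (74.7% in all). Of the 8 tested members with a CACGTG core, 5 rose, 2 fell and 1 was not called, with log2 fold changes (8p over control) from −0.36 to 1.46 and a median of 0.35. The 19 tested members whose window lacked it comprised 7 that rose, 7 that fell and 5 not called, with a median of 0.14. TFEB, TFE3 and ATP6V0A1, which rose by more than 2-fold, were among those without a match in this window. Only 1 start per gene was used, and some lie well downstream of the gene's 5′ end in the deposited positions. The distance was 1598 bases for ATP6AP2, 651 for TFEB, 530 for ATP6V1C2, 473 for ATP6V0B and 461 for ATP6V1D. The printed sites of ATP6V0B and ATP6V0D1 thus lie wholly within the deposited positions of these genes. ATP6V1A and RRAGD were among the 11 members without a window. The difference between the groups with and without the core was not tested.

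With 8p, transcripts of TFEB, TFE3, FNIP1, ATP6V0A1, ATP6AP1 and ATP6V1A were between 1.81 and 2.75 times as abundant as in control cells, while those of LAMTOR2, LAMTOR5, MTOR and RPTOR were lower and MITF was nearly lost. Of the 44 members, 37 passed the filter on low counts. Of these, 29 were called at an adjusted p under 0.05 (78.4%), where 74.7% of all 13822 genes tested were called, so the members' share was near the background. They comprised 17 that rose (45.9%, against 37.9% of all genes) and 12 that fell (32.4%, against 36.9%). A called change of at least 2-fold was found for 7 members (18.9%), against 38.4% of all genes. The median log2 fold change over the 37 was 0.16 and the median absolute value 0.38, beside 0.03 and 0.75 over all genes tested. For 28 of the 37 members (75.7%), the ranges of the 8p and control libraries were apart, as they were for 77% of all genes. With upper quartile scaling, which moved the median over all genes to 0.22, 23 members were called higher and 9 lower, so small rises and falls given here depend on the scaling.

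**Figure D1:**
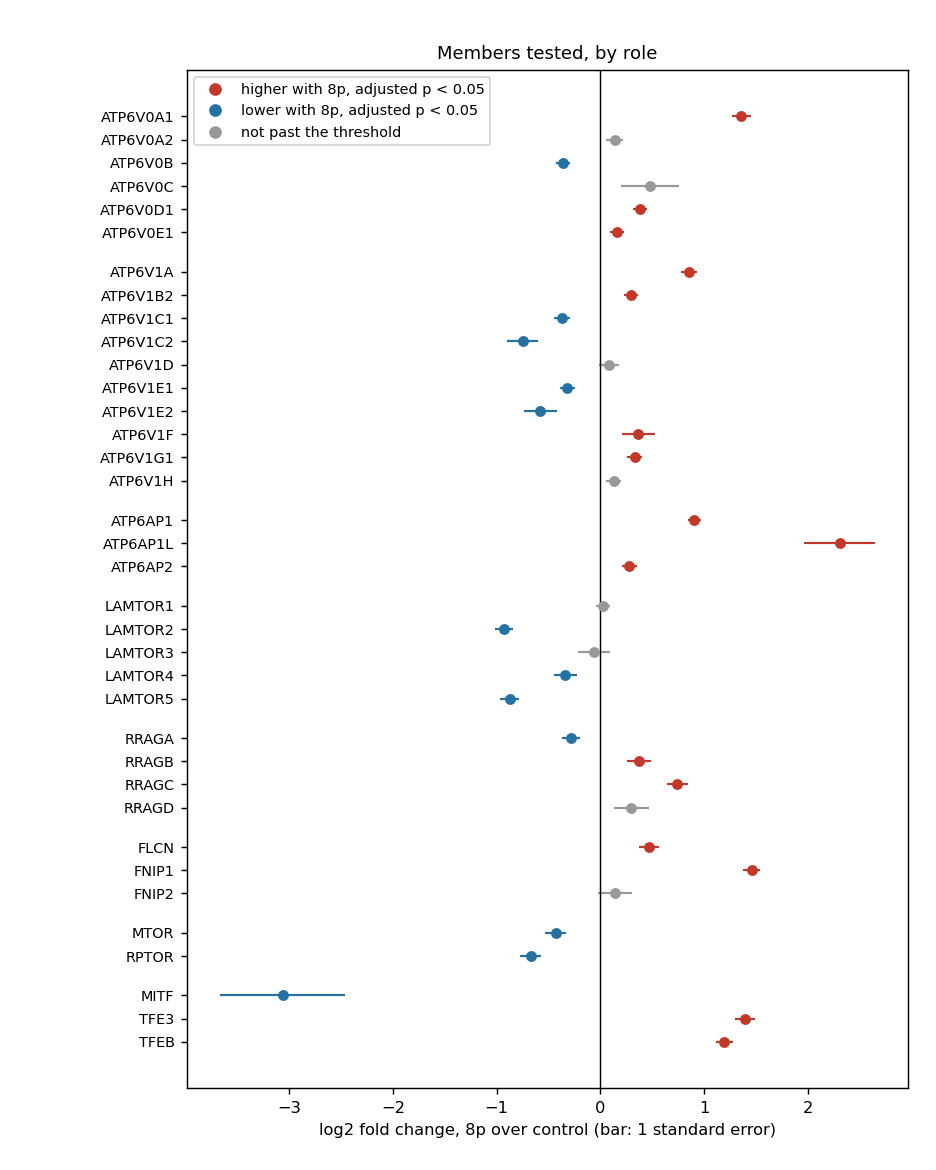
Log2 fold change (8p over control) of the tested members, grouped by role, with bars of 1 standard error and colours for the call at an adjusted p under 0.05. ATP6V1FNB, at 2.88, is not drawn; TFE3, TFEB, FNIP1 and ATP6V0A1 lie between 1.19 and 1.46, and MITF lies at −3.06.

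Among the MiT/TFE transcription factors, TFEB and TFE3 rose and MITF fell. TFEB (ENSG00000112561; chromosome 6, 41683978 to 41736259, minus strand) was at 58.9, 63.4 and 58.9 CPM with 8p, against 26.6, 26.0 and 26.6 CPM in controls. CPM here are counts scaled to a common library size after adjustment with TMM factors. TFE3 (chromosome X, 49028726 to 49043486, minus strand) was at 68.7, 61.4 and 73.9 CPM with 8p, against 25.7, 28.4 and 23.6 CPM in controls. Each was more than 2 times as abundant in every 8p library as in any control library. Their log2 fold changes were 1.19 (SE 0.08, adjusted p = 2.23e-09) for TFEB and 1.39 (SE 0.10, adjusted p = 2.90e-09) for TFE3. MITF (chromosome 3, 69739435 to 69968337, plus strand), known for its role in melanocytes and osteoclasts, had 2, 0 and 6 counts in the 8p libraries, against 38, 29 and 28 counts in controls. The 8 counts with 8p and 95 in controls gave a ratio of 0.115 with an exact 95% binomial interval from 0.0482 to 0.236, which covers counting error only. Its log2 fold change was −3.06 (SE 0.60, adjusted p = 2.89e-04), and −4.44 without 8p replicate 3, which held most of the remaining counts.

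FNIP1, a partner of folliculin, had the largest rise outside genes of low abundance. It was at 76.5, 72.9 and 81.4 CPM with 8p, against 29.01, 27.6 and 27.2 CPM in controls (chromosome 5, 131641714 to 131797063, minus strand). The lowest 8p library stood far above the highest control library, and the log2 fold change was 1.46 (SE 0.08, adjusted p = 2.14e-10). FLCN, folliculin itself, rose less, at 39.1 ± 2.68 CPM with 8p and 28.3 ± 2.26 CPM in controls (SD, n = 3 each; log2 fold change 0.47, adjusted p = 3.54e-04). FNIP2, the paralog of FNIP1, was at 8.15 ± 1.26 CPM with 8p and 7.39 ± 0.403 CPM in controls and was not called (0.14, adjusted p = 0.445).

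Among the V0 genes that the symbol rule takes in, the a1 subunit stood apart from the rest. TCIRG1, the a3 subunit that the rule leaves out, also rose by 1.01 on the log2 scale (192 ± 1.44 CPM with 8p, 95.5 ± 0.621 CPM in controls). ATP6V0A1 (chromosome 17, 42458844 to 42522611, plus strand), which encodes one form of the subunit that guides protons across the membrane, was at 76.2, 78.5 and 83.9 CPM with 8p, against 31.6, 33.8 and 27.6 CPM in controls. It rose by 1.36 on the log2 scale (SE 0.09, adjusted p = 1.54e-09) in all 3 libraries. ATP6V0A2, another form of that subunit, was at 56.4 ± 3.59 CPM with 8p and 51.3 ± 0.517 CPM in controls and was not called (0.14, adjusted p = 0.127), though upper quartile scaling called it higher (0.32, adjusted p = 0.001675). The other tested V0 members moved by less than 1.5-fold. ATP6V0D1, the d subunit that joins the rotor of V1 to the membrane ring, rose by 0.38 on the log2 scale (144.7 ± 0.915 CPM with 8p, 111 ± 4.30 CPM in controls, adjusted p = 7.73e-05). ATP6V0B, a proteolipid of the ring, fell by 0.36 on the log2 scale (204 ± 2.91 CPM with 8p, 263 ± 14.9 CPM in controls, adjusted p = 1.33e-04). ATP6V0E1, a small membrane subunit, was called higher at 0.16 (adjusted p = 0.0419), but its call was lost when any of the 6 libraries except control replicate 3 was left out (adjusted p from 0.0914 to 0.218). ATP6V0C, the main proteolipid of the ring, was counted at 4.76 ± 1.48 CPM with 8p and 3.42 ± 1.11 CPM in controls and was not called (0.48, adjusted p = 0.132). Of its exonic bases, 57.5% are shared with an unnamed protein-coding gene on the same strand, which had 0 counts in all 6 libraries. How reads in shared stretches were assigned is not stated. The readthrough ATP6V1G2-DDX39B likewise had 0 counts, while DDX39B, which shares 87.6% of its exonic bases on the same strand, had 20633. The part of shared stretches in the low count of ATP6V0C was not tested. Without 8p replicate 1 ATP6V0C was called higher (0.66, adjusted p = 0.0470), as it was with upper quartile scaling (0.67, adjusted p = 0.0414).

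Of the 10 V1 genes tested, 4 were higher and 4 lower, near the shares over all genes (37.9% and 36.9%). With upper quartile scaling 6 were higher and 3 lower. ATP6V1A (chromosome 3, 113747019 to 113812056, plus strand), the catalytic subunit that splits ATP, was at 104.0, 97.3 and 94.6 CPM with 8p, against 55.1, 50.6 and 58.2 CPM in controls. The groups lay far apart, and ATP6V1A rose by 0.85 on the log2 scale (SE 0.08, adjusted p = 8.16e-08). ATP6V1B2, its nucleotide-binding partner in the head, was the member with the most counts and rose by 0.30 (409 ± 28.8 CPM with 8p, 333 ± 7.52 CPM in controls, adjusted p = 0.00116). ATP6V1G1, of the peripheral stalks, rose by 0.33 (adjusted p = 0.00110), and its stalk partner ATP6V1E1 fell by 0.32 on the log2 scale (130 ± 4.04 CPM with 8p, 162 ± 14.1 CPM in controls, adjusted p = 0.00118), a call that upper quartile scaling did not make (−0.13, adjusted p = 0.1198). ATP6V1C1, whose product detaches when the pump comes apart, fell by 0.37 on the log2 scale (117 ± 12.9 CPM with 8p, 152 ± 3.82 CPM in controls, adjusted p = 6.06e-04). ATP6V1H, a regulatory subunit, and ATP6V1D, of the central rotor, had log2 fold changes of 0.13 and 0.09 and were not called (adjusted p = 0.126 and 0.418). Upper quartile scaling called both higher, ATP6V1H at 0.32 (adjusted p = 0.001064) and ATP6V1D at 0.27 (adjusted p = 0.0166).

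ATP6V1F, also of the rotor, was at 137, 78.4 and 145 CPM with 8p, against 96.5, 92.2 and 90.6 CPM in controls. Replicates 1 and 3 with 8p were above every control and replicate 2 was below all of them. It was called higher with all libraries (0.37, adjusted p = 0.0441) and without 8p replicate 2 (0.57, adjusted p = 1.535e-06). It was not called without 8p replicate 1 (0.24, adjusted p = 0.216) or without 8p replicate 3 (0.19, adjusted p = 0.2855). The call was also lost without any 1 of the controls, at adjusted p of 0.0856 to 0.143. The less abundant isoforms ATP6V1C2 and ATP6V1E2 fell by 0.75 and 0.58 on the log2 scale. Both overlap a gene on the other strand with several times their counts, and whether the counting used strand is not stated in the labels or files. PDIA6, which shares 29.7% of the exonic bases of ATP6V1C2, was at 71.2 ± 5.65 CPM with 8p and 174 ± 4.20 CPM in controls. RHOQ, which shares 2.93% of those of ATP6V1E2, was at 61.1 ± 3.92 CPM with 8p and 39.5 ± 0.734 CPM in controls. The part of these neighbours in the values of ATP6V1C2 and ATP6V1E2 was not tested. The same holds for EIF2S1 beside ATP6V1D (6.33% of its bases), which was at 26.4 ± 3.25 CPM with 8p and 124 ± 8.08 CPM in controls.

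**Figure D2:**
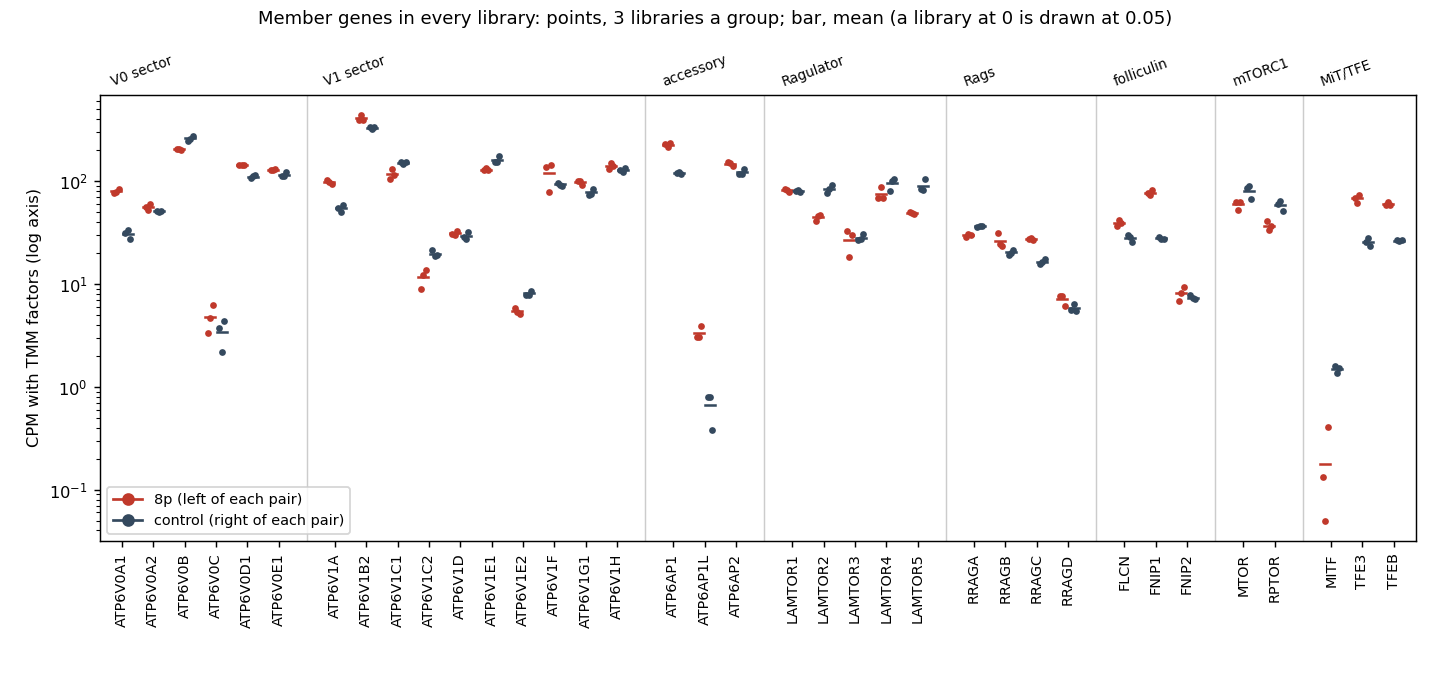
CPM (log axis) of the tested members, other than ATP6V1FNB, in each of the 6 libraries, with 8p in red left of control in dark blue and bars at the group means. The points of TFEB, TFE3, FNIP1, ATP6V0A1, ATP6V1A and ATP6AP1 lie higher with 8p and those of LAMTOR2 and LAMTOR5 lower, while ATP6V1F and LAMTOR3 have 1 low point among the 8p libraries.

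All 3 accessory genes rose, where 37.9% of all genes tested were higher. ATP6AP1, whose product Ac45 helps assemble and steer the pump (chromosome X, 154428632 to 154436516, plus strand), was at 229, 213 and 234 CPM with 8p, against 121, 122 and 117 CPM in controls. The values within each group lay close together, and the log2 fold change was 0.91 (SE 0.07, adjusted p = 5.43e-09). ATP6AP2, also known as the prorenin receptor, rose by 0.28 (147.6 ± 7.201 CPM with 8p, 122 ± 7.44 CPM in controls, adjusted p = 0.00252). ATP6AP1L, a relative of ATP6AP1 with few counts, was at 3.34 ± 0.493 CPM with 8p and 0.659 ± 0.241 CPM in controls (2.31, adjusted p = 1.79e-05). ATP6V1FNB, which starts just past the end of ATP6V1F on the same strand, was at 7.92, 8.93 and 5.13 CPM with 8p, against 0.928, 1.21 and 0.816 CPM in controls (2.88, adjusted p = 1.36e-07). Its order over the 8p libraries, highest in replicate 2, was the reverse of that of ATP6V1F.

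Of the 5 Ragulator genes none was called higher and 3 fell, where 37.9% of all genes were higher and 36.9% lower. LAMTOR2 (chromosome 1, 156054752 to 156058510, plus strand), one of the paired scaffold subunits, was at 41.0, 45.6 and 46.7 CPM with 8p, against 77.2, 84.3 and 92.6 CPM in controls. LAMTOR5 (chromosome 1, 110401249 to 110407942, minus strand), of the other such pair, was at 50.6, 49.1 and 48.5 CPM with 8p, against 83.8, 82.9 and 104.7 CPM in controls. The groups of both genes were clearly apart, with log2 fold changes of −0.93 (SE 0.09, adjusted p = 1.12e-07) for LAMTOR2 and −0.87 (SE 0.09, adjusted p = 4.66e-07) for LAMTOR5. LAMTOR4, the partner of LAMTOR5, fell by 0.34 on the log2 scale (75.5 ± 11.5 CPM with 8p, 95.8 ± 12.8 CPM in controls, adjusted p = 0.0115), although its groups overlapped. With upper quartile scaling it was no longer called (adjusted p = 0.215). C7orf43, which overlaps LAMTOR4 on the other strand and had 26.0% as many counts over the 6 libraries, moved the other way (34.2 ± 3.15 CPM with 8p, 13.9 ± 1.93 CPM in controls). LAMTOR1, the lipid-anchored subunit that holds the complex on the membrane, was at 81.6 ± 2.63 CPM with 8p and 80.4 ± 1.19 CPM in controls (0.02, adjusted p = 0.773), and was called higher with upper quartile scaling (0.21, adjusted p = 0.01215). LAMTOR3, the partner of LAMTOR2, was at 32.7, 18.5 and 30.1 CPM with 8p, against 26.7, 27.4 and 30.6 CPM in controls, and was not called with all libraries (−0.06, adjusted p = 0.737) or without 8p replicate 2 (0.125, adjusted p = 0.271). As for ATP6V1F, the low value was that of 8p replicate 2.

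The Rag GTPases work as pairs of RagA or RagB with RagC or RagD. RRAGC (chromosome 1, 38838198 to 38859823, minus strand) was at 27.2, 28.3 and 26.6 CPM with 8p, against 15.6, 16.3 and 17.4 CPM in controls. It rose without overlap by 0.74 on the log2 scale (SE 0.10, adjusted p = 7.56e-06). RRAGD, a gene known as a direct target of the MiT/TFE factors, was at 7.18 ± 0.899 CPM with 8p and 5.83 ± 0.540 CPM in controls and was not called (0.30, adjusted p = 0.125), except with upper quartile scaling (0.49, adjusted p = 0.01755). RRAGA fell by 0.28 on the log2 scale (29.9 ± 1.07 CPM with 8p, 36.3 ± 0.574 CPM in controls, adjusted p = 0.00736), which upper quartile scaling did not call (adjusted p = 0.325). RRAGB rose by 0.37 (26.3 ± 4.20 CPM with 8p, 20.3 ± 1.12 CPM in controls, adjusted p = 0.00973), with 31.1 CPM in 8p replicate 1. Its value was 0.21 without that library (adjusted p = 0.107) and 0.31 without control replicate 1 (adjusted p = 0.0629), neither of them called.

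Both mTORC1 members, RPTOR and MTOR, fell, where 36.9% of all genes tested were lower. RPTOR, the raptor subunit that brings substrates to the kinase (chromosome 17, 80544819 to 80966371, plus strand), was at 41.0, 33.2 and 36.4 CPM with 8p, against 60.1, 64.6 and 51.1 CPM in controls. MTOR, the kinase (chromosome 1, 11106535 to 11262507, minus strand), was at 63.5, 52.7 and 63.3 CPM with 8p, against 85.6, 89.0 and 67.3 CPM in controls. In both genes control replicate 3 was the lowest control and still lay above every 8p library. The log2 fold changes were −0.67 for RPTOR (SE 0.10, adjusted p = 2.52e-05) and −0.43 for MTOR (SE 0.11, adjusted p = 0.00171).

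The 7 members that were not tested are isoforms or readthroughs that had few counts in these libraries. ATP6V0A4 and ATP6V1G3 had 0 counts in all libraries. At a floor of 3 counts over the group, this allows up to 0.0645 CPM over the 8p group and 0.0472 CPM over the control group. ATP6V1G2-DDX39B also had 0 counts, but shares 87.6% of its exonic bases with DDX39B and 12.4% with ATP6V1G2, on the same strand. How reads in shared stretches were assigned is not stated, so its 0 sets no limit on its level. ATP6V1B1 had 1 count with 8p and 0 in controls, and ATP6V0D2, a d isoform found in osteoclasts, had 2 counts with 8p and 1 in controls. ATP6V1G2 had 22 counts with 8p and 15 in controls, and ATP6V0E2 had 37 with 8p and 15 in controls. ATP6V1G2 overlaps NFKBIL1, a gene with far more counts, on the other strand.

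Within families, shares of transcripts were computed from counts divided by exonic length. FNIP1 made up 92.8% ± 0.894 of FNIP transcripts with 8p and 83.8% ± 0.275 in controls (SD, n = 3 each). The share of RRAGB among RagA and RagB transcripts was 33.8% ± 4.23 with 8p and 24.6% ± 0.736 in controls, and that of RRAGC among RagC and RagD was 79.0% ± 1.80 with 8p and 73.4% ± 2.29 in controls. None of these shares overlapped between groups. Of a subunit transcripts, ATP6V0A1 held 13.1% ± 0.525 with 8p and 9.97% ± 0.939 in controls, ATP6V0A2 held 7.43% ± 0.434 with 8p and 13.2% ± 0.209 in controls, and TCIRG1 held 79.4% ± 0.884 with 8p and 76.9% ± 0.843 in controls. The a3 form thus dominated in every library, and the order of the other two differed between the groups. Among TFEB, TFE3, MITF and their relative TFEC, TFE3 held the largest share, 46.8% ± 2.62 with 8p and 46.0% ± 2.51 in controls, followed by TFEB at 31.6% ± 2.49 with 8p and 35.7% ± 1.75 in controls. TFEC held 21.5% ± 0.370 with 8p and 16.7% ± 0.647 in controls, and MITF 0.0715% ± 0.0809 with 8p and 1.59% ± 0.173 in controls.

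**Figure D3:**
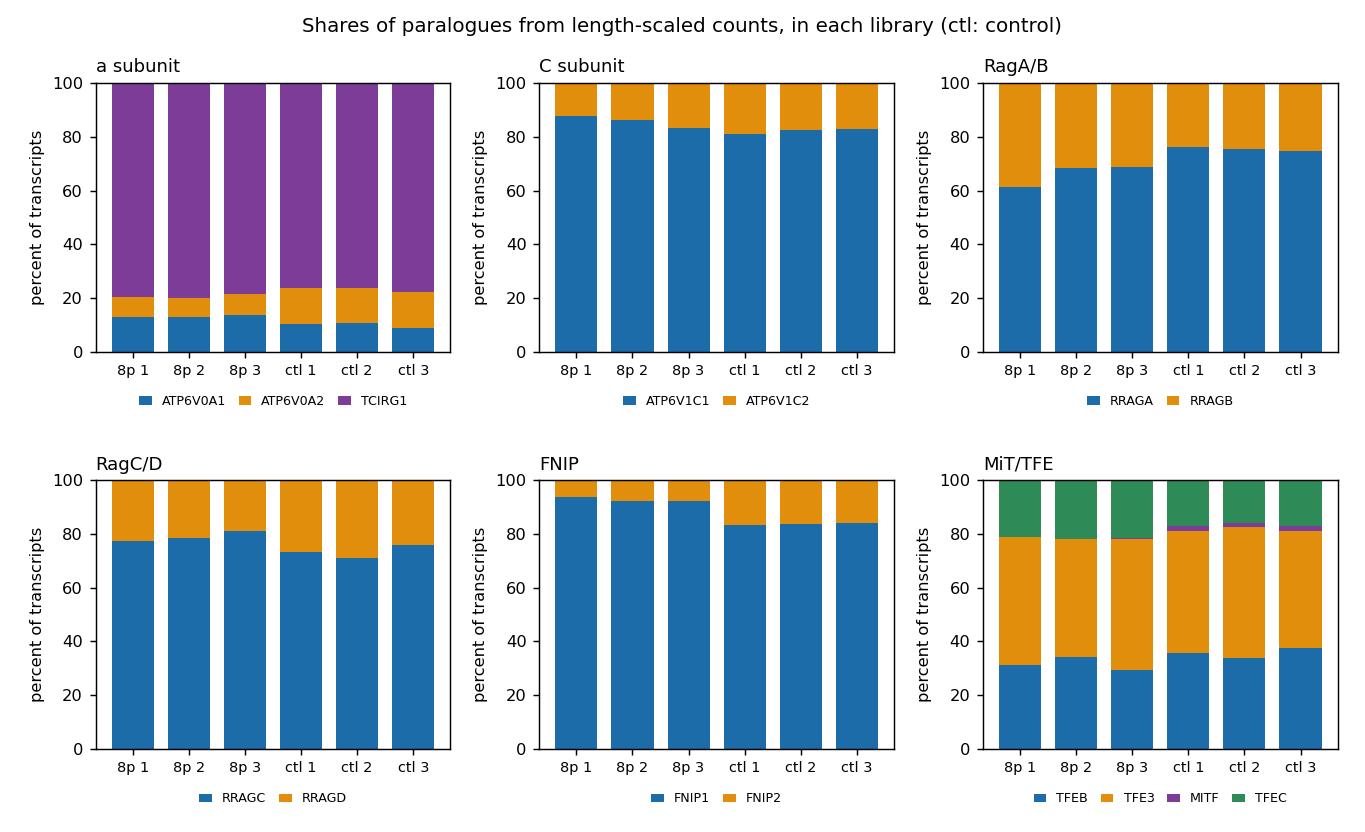
Share of each paralogue (percent of length-scaled counts of its family) in each of the 6 libraries, 8p libraries left of controls. FNIP1 fills 92.8% of FNIP transcripts with 8p and 83.8% in controls, and the MITF band, 1.59% in controls, is almost absent with 8p.

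On the TPM scale, which allows levels of different genes to be compared, ATP6V1F ranked highest of the 44 members in both groups, at 445 ± 108 TPM with 8p and 394 ± 24.0 TPM in controls. ATP6V0E1 (237 ± 16.9 TPM) and ATP6V1G1 (223 ± 24.2 TPM) came next with 8p and lay within their spread of each other. In controls the next were ATP6V0B (248 ± 6.55 TPM) and ATP6V0E1 (239 ± 4.06 TPM). LAMTOR2 ranked 9 with 8p (91.9 ± 11.1 TPM) and 5 in controls (197 ± 12.1 TPM), while ATP6AP1 ranked 6 with 8p (137 ± 4.64 TPM) and 13 in controls (82.2 ± 4.15 TPM). ATP6V1A, at 57.1 ± 4.56 TPM with 8p and 35.6 ± 1.89 TPM in controls, stayed below ATP6V1B2, at 156 ± 23.8 TPM with 8p and 142 ± 4.81 TPM in controls, although the A and B subunits occur in equal number in the pump. ATP6V0C, at 9.43 ± 2.87 TPM with 8p and 7.60 ± 2.33 TPM in controls, carries the limit on its count given above.

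Other genes of the pathway were taken from fixed lists, which were chosen with earlier results of these data known. They are described by counts and medians. These are to be read beside the shares over all genes tested: 37.9% higher and 36.9% lower, with a median of 0.03. Of 33 lysosomal genes known as CLEAR targets of TFEB, 27 rose, 2 fell and 4 were not called, with a median log2 fold change of 1.08. PSAP, the precursor of the saposins that help degrade sphingolipids, was at 2033 ± 176 CPM with 8p and 253 ± 8.93 CPM in controls. CTSF, a cathepsin, and GPNMB, a lysosomal glycoprotein of macrophages, rose by 2.57 and 2.61 on the log2 scale from low levels. CTSF was at 6.49 ± 1.68 CPM with 8p and 1.11 ± 0.462 CPM in controls. GPNMB was at 1.46 ± 0.685 CPM with 8p and 0.234 ± 0.0843 CPM in controls (SE 0.52 on the log2 scale). SGSH, a sulfatase, had the largest value (5.50), but shares 8 exonic bases with SLC26A11 on the other strand, which also rose; without SGSH the list had 26 genes higher and 2 lower and a median of 1.00. Of 14 genes for the a3 subunit, accessory and assembly factors, 9 rose and 1 fell, with a median of 0.72. TCIRG1 was at 192 ± 1.44 CPM with 8p and 95.5 ± 0.621 CPM in controls (1.01, SE 0.06, adjusted p = 8.69e-10). DMXL1, DMXL2 and ROGDI, whose products belong to the machinery that joins V1 to V0, rose by 1.557, 1.404 and 1.399 on the log2 scale. TLDC2 had 56 counts with 8p and 1 in controls, a ratio of 76.4 (exact 95% binomial interval 13.2 to 3071, for counting error only), and lies partly over SAMHD1, a gene with far more counts on the other strand.

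Of 26 tested partners and upstream regulators of mTORC1, 7 rose, 12 fell and 7 were not called, with a median of −0.27; the number called was near the background of 74.7%. BMT2, the methionine sensor also called SAMTOR, rose by 1.30 on the log2 scale. SEH1L, shared by GATOR2 and the nuclear pore, was at 46.3 ± 4.83 CPM with 8p and 135 ± 8.36 CPM in controls (−1.54), and RHEBL1, a relative of the mTORC1 activator RHEB, was at 0.286 ± 0.148 CPM with 8p and 2.71 ± 0.203 CPM in controls (−3.24). Of 10 direct mTORC1 substrates, 3 rose and 5 fell (37.9% and 36.9% over all genes), with a median of −0.20. GRB10 and EIF4EBP1, which restrain insulin signalling and cap-dependent translation, fell by 2.75 and 2.17 on the log2 scale. LARP1, which binds mRNAs of the translation machinery, fell by 0.85 on the log2 scale, and ULK1, a kinase that starts autophagy, rose by 0.92. Of 13 genes for the control of the MiT/TFE factors, 2 rose and 5 fell, against the same shares over all genes, with a median of −0.11. TFEC was at 62.9 ± 2.66 CPM with 8p and 19.0 ± 0.439 CPM in controls (1.73). The 14-3-3 genes YWHAQ, YWHAG and YWHAE, of the family that holds phosphorylated TFEB in the cytosol, fell by 1.78, 1.53 and 1.46 on the log2 scale. YWHAH and YWHAB, of the same family, fell by 0.65 and 0.21. YWHAZ, with the most counts of these genes, was not called (1230 ± 46.5 CPM with 8p, 1328 ± 48.8 CPM in controls, −0.11, adjusted p = 0.173).

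**Figure D4:**
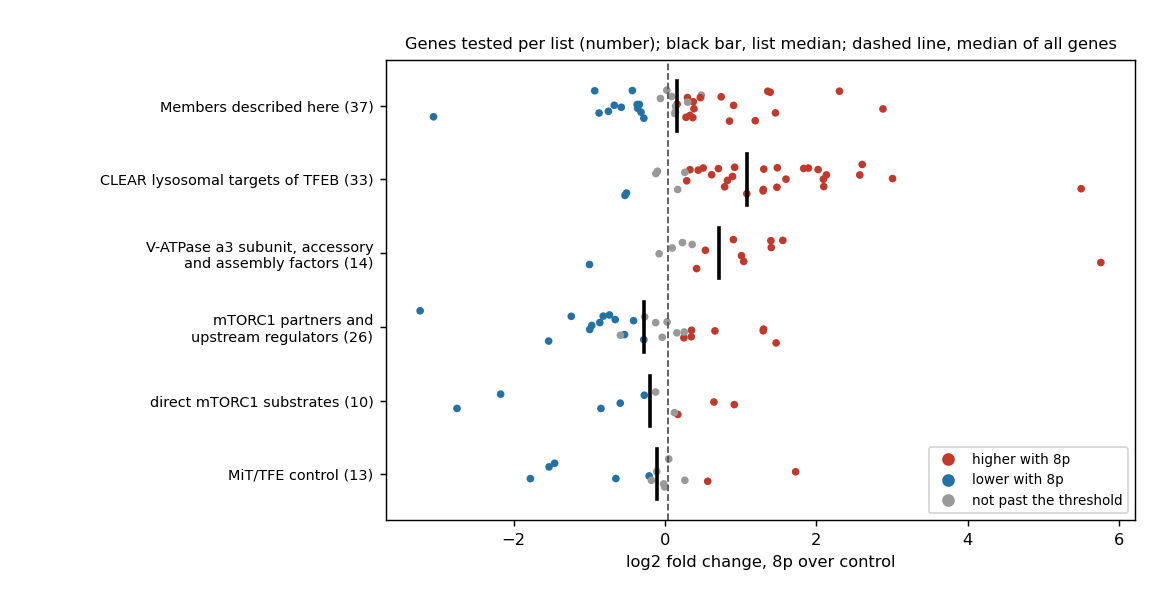
Log2 fold change (8p over control) of each tested gene in the 44-member set and in 5 fixed lists, with black bars at the list medians and a dashed line at the median of all genes (0.03). The CLEAR targets are centred at 1.08 and the members at 0.16.

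Total counts ran from 14972069 to 16210861 in the 8p libraries and from 18834611 to 23485628 in controls, and the members together took 0.283% to 0.297% of counts with 8p and 0.257% to 0.261% in controls. Mitochondrially encoded genes took 6.42% to 10.004% of counts with 8p and 1.64% to 1.91% in controls, with the lowest 8p share in replicate 2; their part in the values of members was not tested beyond a fit without them, in which 16 members were called higher and 12 lower. Over all genes tested, 11.7% lay more than 0.5 on the log2 scale from the mean of 8p replicates 1 and 3 in 8p replicate 2, and 3 of the 37 members did so, ATP6V1F, LAMTOR3 and MITF. For comparison, 8p replicates 1 and 3 were themselves more than 0.5 apart for 9.63% of all genes tested. Of 23 markers of other cell types, 9 to 10 were at 0 in each 8p library and 9 to 11 in each control, among them EPCAM, HBB and KRT19 in all 6. Their summed level was 589 to 663 CPM with 8p and 156 to 161 CPM in controls, most of it from PECAM1, which myeloid cells also express (553 ± 37.2 CPM with 8p, 111 ± 2.67 CPM in controls). COL1A1, a fibroblast collagen gene, was at 31.8 ± 5.99 CPM with 8p and 0.542 ± 0.297 CPM in controls, while its partner COL1A2 was at 0 in all 6 libraries. Of the 9 markers tested, 4 rose and 3 fell, beside 37.9% higher and 36.9% lower over all genes tested. PECAM1, COL1A1, NKG7 and GP1BA rose. NKG7 was at 33.96 ± 4.55 CPM with 8p and 19.78 ± 1.25 CPM in controls. GP1BA was at 2.67 ± 0.620 CPM with 8p and 1.61 ± 0.365 CPM in controls (adjusted p = 0.0422). Those that fell were CD3D (0.481 ± 0.287 CPM with 8p, 3.01 ± 0.644 CPM in controls), TRAC (4.87 ± 1.43 CPM with 8p, 12.9 ± 0.750 CPM in controls) and KRT18 (3.06 ± 0.410 CPM with 8p, 8.48 ± 0.704 CPM in controls). The myeloid markers SPI1, LYZ, CD33 and MPO were expressed in all libraries and moved apart: LYZ and SPI1 were 3.59 and 1.60 times as abundant with 8p as in controls, and MPO and CD33 were 0.643 and 0.707 times as abundant. The part of these marker levels in the members' values was not tested.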

How the data were processed

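Values are the raw counts per gene that the authors deposited for 6 libraries, with gene positions and lengths. Per the submitters' processing notes the build was hg38 and the tools included edgeR 3.22.5, DESeq2 1.20.0, featureCounts 1.5.0-p3 and the aligner HISAT2 2.0.5. How ambiguous reads were handled is not stated. All 58735 gene lengths in the other deposited column equalled the union of exons in GENCODE release 29, so TPM values are approximate for genes with many isoforms. The labels name poly(A) capture or ribosomal RNA removal without saying which.

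Counts were tested in R 4.3.3 with edgeR 4.0.16, using its quasi-likelihood F test (TMM factors, filterByExpr, group only), with Benjamini-Hochberg adjustment over the 13822 genes that passed. The standard error is the absolute log2 fold change divided by the square root of F. No spike-in is described, so changes are relative. Alternatives were DESeq2 1.42.0, limma-voom (limma 3.58.1), 3 scalings, 2 filters, 2 gene subsets, 2 thresholds, a replicate block and leaving out each library. The pipeline was run on simulated counts in which few genes changed. In these data 74.7% of all genes tested were called, so that run cannot check the scaling. No library pair agreed within sampling noise (chi-square per degree of freedom of at least 3.03). Every member could be named, as could up to 4 called genes of largest change per list. Members and lists were chosen with earlier results of these data known.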

Additional observations from a re-analysis of the deposited data

How the results depend on the processing

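The counts of called genes over all genes, over the members and over each fixed list stayed within 1.5 times the main value when any 1 library was left out (14 to 17 members higher and 12 lower, against 17 and 12; 9871 to 10640 of all genes called, against 10330). Requiring a 1.5-fold change (glmTreat) left 6293 of all genes, 9 members higher and 3 lower; 3 mTORC1 partners and regulators higher and 7 lower; 0 CLEAR targets lower, where edgeR's test called 2; 1 gene of MiT/TFE control higher and 3 lower; and 1 mTORC1 substrate higher and 3 lower. With no filter on low counts, 4 mTORC1 partners and regulators were higher, 2 V-ATPase assembly genes lower and 4 CLEAR targets lower. Upper quartile scaling called 4 genes of MiT/TFE control higher and turned PPP3CB, a calcineurin subunit not called otherwise, to 0.17 (adjusted p = 0.0374). Under that scaling the median log2 fold change of the members was 0.35 and that of all genes 0.22, against 0.16 and 0.03; the cause of these shifts was not tested. DESeq2 called 15 members higher and 12 lower.

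With the replicate block 10090 genes were called, among them 16 members higher and 12 lower; ATP6V0E1 lost its call (adjusted p = 0.0637). Correlations of same-numbered deviations between 8p and control libraries were 0.01, −0.05 and −0.06. Values this weak show no pairing by replicate number, but cannot show whether same-numbered cultures were handled together. Depth limits MITF and ATP6AP1L, with 8 and 43 counts in their lower group.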
